A study of Mus musculus with 36 samples.

Results

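Mice with heavy colons for their length were set against mice with light ones among 27 animals that had received an siRNA into the rectum during dextran sulfate sodium (DSS) colitis. The 14 samples compared were those with a labelled colon weight-to-length ratio of at least 2.9 mg per mm (7 samples, high ratio) or of at most 2.6 mg per mm (7 samples, low ratio), of 36 samples in the series. The other 13 siRNA-dosed samples lay between these limits (mid ratio) and entered the fits as a class of their own, and the 9 Control samples were used only for levels. Each sample was distal colon RNA on 1 Affymetrix array, and every sample, Control included, is labelled with 5% DSS, while the design text describes only the siRNA groups, so what the Control mice received is not settled by the labels.

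The high ratio class held scrambled siRNA samples 4, 5 and 6, samples 3 and 6 of siTNF, an unmodified siRNA against Tnf, and samples 4 and 6 of siTNF-OMe, the same target with O-methyl nucleotides. The low ratio class held scrambled samples 1, 2 and 3 and samples 1, 2, 4 and 7 of siTNF-OMe-P, the O-methyl-propanediol form. Only scrambled siRNA occurred in both classes, so outside the scrambled samples the ratio class and the siRNA given cannot be told apart. The mid class held 1 scrambled, 4 siTNF, 4 siTNF-OMe and 4 siTNF-OMe-P samples. Amplification batches 1, 2 and 3 held 0, 3 and 4 high ratio samples and 3, 3 and 1 low ratio samples, and hybridization batches 1 and 2 held 2 and 5 high ratio samples and 4 and 3 low ratio samples. Strain, sex and age are not given in the labels, and nothing in them says that samples came from separate animals beyond the colon measures given for each sample. In whole tissue, fewer cells of a type and less RNA per cell cannot be told apart.

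DSS damages the colonic epithelium and lets bacteria reach the wall, and the colon then shortens and thickens with oedema and infiltrating cells. Its weight per length is therefore read as a gross measure of inflammation, and myeloperoxidase (MPO), an enzyme of neutrophil granules, as a biochemical one. Interferons, from T cells, NK cells and infected or damaged tissue, act through STAT and IRF factors on promoters that carry a gamma-activated site (GAS) or an interferon-stimulated response element (ISRE), and turn on guanylate-binding proteins, immunity-related GTPases and chemokines such as Cxcl10.

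The labelled ratio was 3.01 ± 0.0463 mg per mm in high ratio mice and 2.46 ± 0.157 mg per mm in low ratio mice (SD, n = 7 each), with 2.76 ± 0.0828 in the mid class (n = 13) and 2.18 ± 0.130 in Control (n = 9). Just inside the limits lay scrambled 6 at 2.95 and scrambled 2 at 2.58, and just outside lay siTNF-OMe 3 at 2.87 and siTNF-OMe-P 8 at 2.607. Colon weight was 175 ± 12.8 mg in high ratio mice and 158 ± 6.16 mg in low ratio mice, and colon length was 5.81 ± 0.385 in high ratio mice and 6.43 ± 0.403 in low ratio mice. Length is labelled in mm, but the ratio follows from weight and length only if length was in cm. Both enter the ratio, so these differences describe the classes and were not tested. The labelled ratio of scrambled 7 was 2.76, whereas its own weight and length gave 2.586, below the limit of the low ratio class. That of siTNF-OMe-P 3 was 2.62, whereas its weight and length gave 2.787, and it was mid ratio by either.

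MPO activity did not separate the classes. It ran from 0.057 through a median of 0.298 to 0.932 U per mg in high ratio mice, and from 0.082 through 0.474 to 1.35 U per mg in low ratio mice, so the ranges overlapped almost entirely. The means were 0.400 ± 0.304 U per mg in high ratio mice and 0.656 ± 0.439 U per mg in low ratio mice (SD, n = 7 each), a difference of -0.257 U per mg with a 95% interval from -0.703 to 0.193 and p = 0.224 in an exact two-sided permutation test. The high ratio mean was lower within both hybridization batches, by a difference of -0.356 in batch 1 (exact permutation p = 0.467) and -0.0577 in batch 2 (exact permutation p = 0.786). In amplification batch 2 the difference was -0.304 (exact permutation p = 0.5). Across all 27 siRNA-dosed mice, MPO and the ratio gave Pearson's r = -0.101 (permutation p = 0.617) and Spearman's rho = -0.203 (permutation p = 0.309), and r = -0.305 (permutation p = 0.139) without siTNF-OMe-P 7 and siTNF-OMe-P 2, the samples farthest from the median ratio.

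Within the scrambled mice the heavier colons had the lower MPO. Their values were 0.298, 0.238 and 0.27 U per mg in high ratio mice 4, 5 and 6 and 1.06, 1.35 and 0.474 U per mg in low ratio mice 1, 2 and 3. All 3 high values lay below all 3 low ones, and the difference of -0.693 U per mg had p = 0.1 in the exact two-sided permutation test, the smallest that 3 against 3 allows. In the mice given an siRNA against Tnf the difference was 0.0705 U per mg (exact permutation p = 0.829, 4 against 4).

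**Figure D1:**
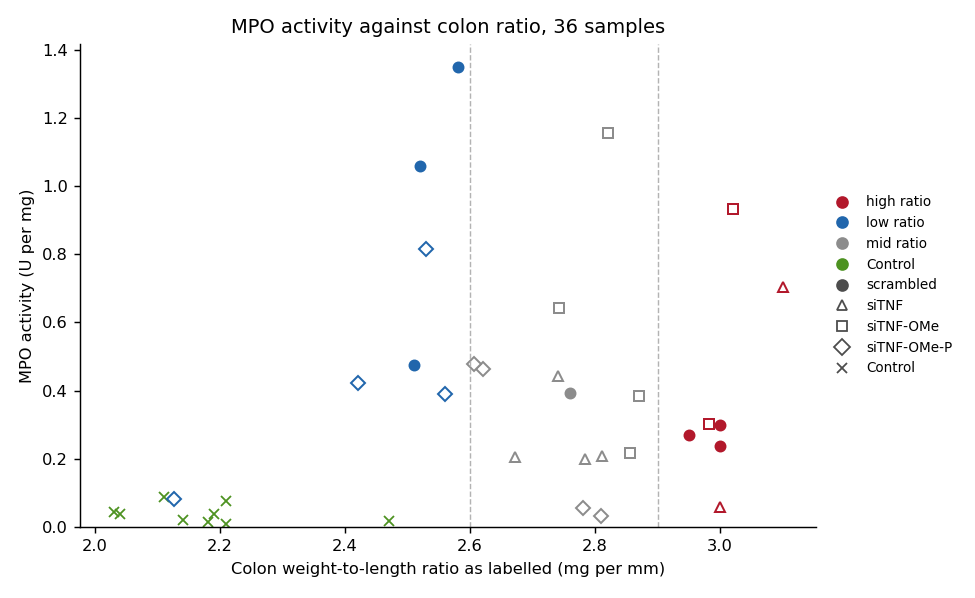
MPO activity (y axis, U per mg) against the labelled colon weight-to-length ratio (x axis, mg per mm) for 36 samples, 1 symbol per sample, coloured by class and shaped by siRNA, with dashed lines at 2.9 and 2.6. The 3 scrambled mice of the high ratio class lie between 0.238 and 0.298 U per mg, below the 3 scrambled mice of the low ratio class, and the remaining high and low ratio mice overlap.

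No transcript was called between the classes when all 14 samples were used. limma tested 28853 probe sets in a fit of 27 arrays with terms for amplification and hybridization batch, and 0 passed an adjusted p of 0.05 (0% called), with a lowest adjusted p of 1. Of the same probe sets 603 (2.09%) had an unadjusted p under 0.05, and of these 256 were higher and 347 lower in high ratio colons, where 1442.65 would be below 0.05 with uniform p values. The median difference over all probe sets was 0.0031 log2, with a median SE of 0.0973 and a median 95% half-width of 0.200 log2, so the 27 arrays left room for differences of that size at a typical probe set. Only 2 probe sets (0.00693%) had all 7 high ratio arrays below all 7 low ratio arrays, those for Arhgap11a, a GTPase-activating protein (-0.15 ± 0.072 log2, SE), and Zfp105, a zinc finger protein (-0.15 ± 0.062 log2), and none had them above. Both were named after their values were seen. Within hybridization batch 1 alone 7405 probe sets were called, of which 5247 were higher, and both high ratio arrays of that batch had a narrow spread of signals (SD 1.69), against 1.77 to 1.81 in its 4 low ratio arrays. Array weights gave 73 calls, and no other fit of both siRNA kinds gave any but amplification batch 2 alone, described with the scrambled samples.

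Several arrays stood apart from their class. Among the high ratio arrays, 10 genes of pancreatic acinar cells, chosen after their values were seen, averaged 12.82 log2 in scrambled 5 and 8.90 in scrambled 6, and between 7.90 and 8.32 in the other 5. Low ratio arrays averaged 7.72 to 8.18 over the same genes. Cpa1, which encodes pancreatic carboxypeptidase A, read 13.37 in scrambled 5, 8.60 in scrambled 6 and 7.44 to 7.89 in the remaining high ratio arrays, against 7.31 to 7.78 in low ratio arrays, and it was among the highest fitted differences of the whole comparison (1.17 ± 0.74 log2, SE, unadjusted p = 0.123). Keratins of squamous epithelium averaged 8.57 in siTNF 3 and 8.43 in siTNF-OMe 4 of the high ratio class and 10.03 and 9.47 in siTNF-OMe-P 1 and 2 of the low ratio class, where the other 10 arrays lay under 8. The list of neutrophil genes averaged 9.57 in siTNF 3 and at most 8.00 in the other high ratio arrays, against 7.55 to 8.40 in low ratio arrays. The SD over probe sets was 1.69 in scrambled 5 and siTNF 3 of the high ratio class and in siTNF-OMe-P 2 of the low ratio class, and 1.74 to 1.81 in the rest.

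**Figure D2:**
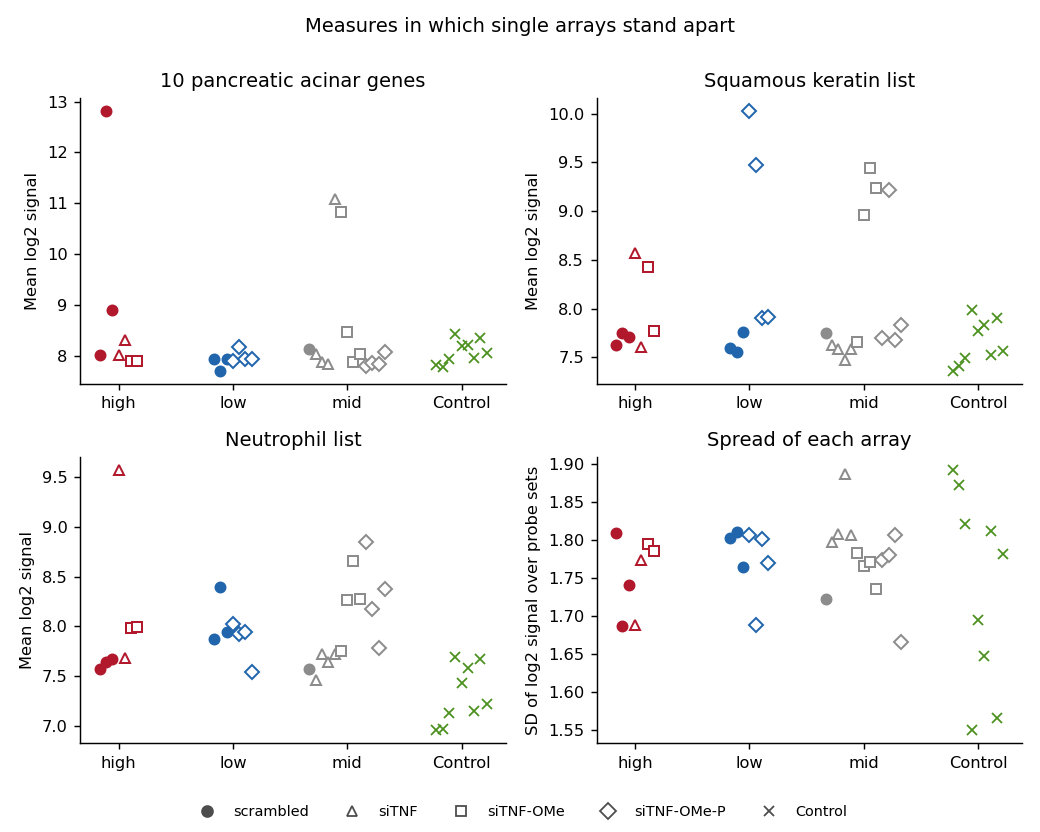
Mean log2 signal of 10 pancreatic acinar genes, of the squamous keratin list and of the neutrophil list, and the SD of log2 signal over probe sets, for each array (1 symbol) by ratio class, shaped by siRNA. Scrambled 5 of the high ratio class reaches 12.82 for the pancreatic genes, siTNF 3 of the high ratio class reaches 9.57 for the neutrophil genes, and siTNF-OMe-P 1 of the low ratio class reaches 10.03 for the squamous keratins.

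The tissue markers were present in both classes. Smooth muscle actin Acta2 averaged 13.32 in high ratio arrays and 13.33 in low ratio arrays, the colonocyte carbonic anhydrase Car1 13.44 and 13.32 in the same order of classes, and the goblet cell mucin Muc2 12.81 in high ratio and 12.70 in low ratio arrays. Of the 28 cell type markers measured, 0 were called. The macrophage markers Cd68 (0.08 ± 0.12 log2, SE) and Adgre1 (0.06 ± 0.12) and the T cell marker Cd3e (0.0014 ± 0.10) differed between the classes by less than their errors. The remaining macrophage marker Csf1r (0.14 ± 0.12) and T cell marker Cd4 (0.19 ± 0.13) differed by more than theirs, as did some markers of other cell types.

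Tnf, the target of 3 of the 4 siRNAs, did not differ detectably between the classes when all 14 samples were used. It ran from 8.36 through a median of 8.56 to 9.42 log2 in high ratio arrays and from 8.42 through 8.94 to 9.46 in low ratio arrays. The ranges coincided, and the difference was -0.08 ± 0.19 log2 (SE, unadjusted p = 0.654). It was -0.85 log2 in scrambled samples (limma unadjusted p = 1.45e-04, adjusted p = 0.0838). There all 3 high ratio values lay below all 3 low ones, as in 7.37% of all probe sets. In the mice given an siRNA against Tnf it was 0.36 log2 (limma unadjusted p = 0.0704). The scrambled difference minus that of the Tnf siRNA mice was -1.10 log2 (limma unadjusted p = 7.40e-04, adjusted p = 0.346).

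None of the genes with the smallest p values on the high side passed the threshold. Nupr1, a stress-induced nuclear protein, ran from 12.22 through 12.45 to 12.58 log2 in high ratio arrays and from 12.01 through 12.08 to 12.38 in low ratio arrays. Of the 7 low ratio values, 5 lay below every high ratio value. The difference was 0.34 ± 0.081 log2 (SE), with an unadjusted p of 2.98e-04 and an adjusted p of 1, and it was of like size in scrambled samples (0.30) and in mice given an siRNA against Tnf (0.33). Leaving out any 1 array moved it between 0.31 and 0.40.

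Pmaip1, which encodes the pro-apoptotic protein Noxa, was 0.43 ± 0.13 log2 higher in the fit, and Gadd45b, a stress sensor that acts on MAP kinase signalling, 0.41 ± 0.14. Rab20, a small GTPase of membrane traffic, ran from 9.17 through 9.34 to 10.23 in high ratio arrays and from 9.01 through 9.20 to 9.36 in low ratio arrays, a difference of 0.38 ± 0.11 log2. Its highest value came from siTNF 3, without which the difference was 0.22, and without that array Pmaip1 differed by 0.33 and Gadd45b by 0.32. Irs2, an adaptor of the insulin receptor, differed by 0.40 ± 0.13 log2, the autophagy gene Atg2a by 0.32 ± 0.099, and Rell1, Abhd3, Vsig2, Adck1, BC030500 and Mir196a-1 by 0.19 to 0.33, all with an adjusted p of 1. Adck1 differed by 0.19 without scrambled 4, and Rell1 by 0.13 and BC030500 by 0.12 without siTNF 3. Without the batch terms Irs2 differed by 0.20, Atg2a by 0.16, Pmaip1 by 0.26, Gadd45b by 0.24 and Adck1, Abhd3, BC030500 and Mir196a-1 by 0.11 to 0.22.

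On the low side the smallest p values belonged to Gemin6, a subunit of the SMN complex that assembles splicing particles (-0.41 ± 0.11 log2), Apol7a, an apolipoprotein L (-0.42 ± 0.11), and Smc2, the ATPase core of condensin (-0.21 ± 0.056). Smc2 read 6.63 through 6.77 to 6.89 in high ratio arrays and 6.89 through 6.96 to 7.11 in low ratio arrays, so the classes met at a single level. Pcp4, a calmodulin-binding peptide of neurons, ran from 9.22 through 9.93 to 10.06 in high ratio arrays and from 9.74 through 10.32 to 10.62 in low ratio arrays, and 6 of the 7 low ratio values exceeded every high ratio value (-0.62 ± 0.18 log2, unadjusted p = 0.00219, adjusted p = 1). Anxa8, an annexin, differed by -0.47 ± 0.14 log2, Csta1, a cystatin, by -0.38 ± 0.11 and Upp1, a uridine phosphorylase, by -0.68 ± 0.22. A probe set for Nlrc5, the transactivator of MHC class I genes, differed by -0.33 ± 0.10, whereas another probe set of the same gene, of higher signal, differed by 0.016 ± 0.12. Tmem229b, Klra5 and Atad5 differed by -0.35, -0.12 and -0.10 log2. Without the batch terms Gemin6 differed by -0.21, Csta1 by -0.23, the lower Nlrc5 probe set by -0.19, Klra5 by -0.06 and Atad5 by -0.05 log2.

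**Figure D3:**
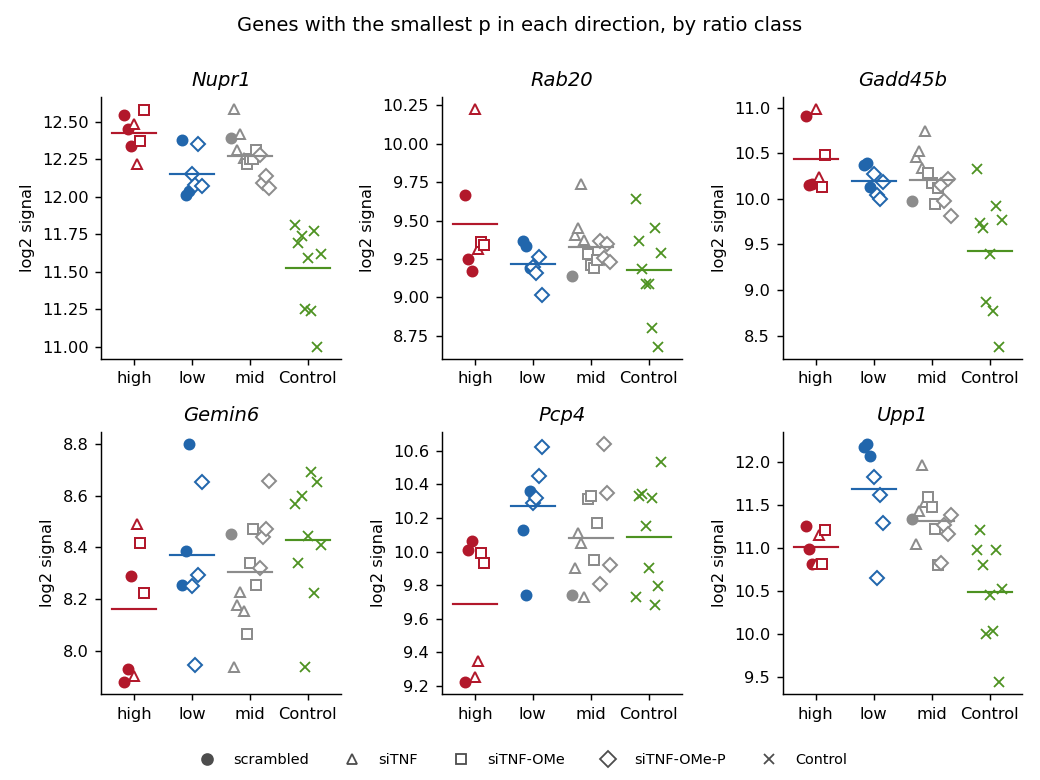
Log2 signal of Nupr1, Rab20, Gadd45b, Gemin6, Pcp4 and Upp1 on each array (1 symbol), by ratio class and shaped by siRNA, with class means as lines. Nupr1 averages 12.43 in high ratio and 12.15 in low ratio arrays, and Pcp4 averages 9.69 in high ratio and 10.27 in low ratio arrays, with overlap between the classes in every panel.

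The gene lists whose medians lay farthest from that of all probe sets were those of the interferon response. All 22 measured genes induced by type I interferon had a fitted difference below 0, with a median of -0.27 log2 beside 0.0031 over all probe sets, 3 of them (Zbp1, Usp18 and Oasl2) at an unadjusted p under 0.05, a share to be set beside the 1.2% of all probe sets that were lower at that p. Ifit1, a sensor of foreign RNA caps, ran from 8.62 through 9.00 to 9.57 in high ratio arrays and from 8.54 through 10.09 to 10.91 in low ratio arrays (-0.64 ± 0.32 log2). Zbp1, a sensor of Z-form nucleic acids, differed by -0.53 ± 0.23 log2, and Oas2, an oligoadenylate synthetase, by -0.03 ± 0.15. Of 17 measured genes of antigen presentation and the interferon gamma response, 16 lay below 0, with a median of -0.21 and 9 at an unadjusted p under 0.05. None of either list was called. The GTPase genes Iigp1 (-1.05 ± 0.42 log2) and Irgm1 (-0.95 ± 0.42) lay lowest, and the class II gene H2-Aa (-0.02 ± 0.080) and Nlrc5 lay highest.

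Gm12250, which encodes the immunity-related GTPase Irgb10, had the lowest difference of any probe set. It read 8.18, 7.92, 8.12, 7.96, 8.24, 7.98 and 8.64 log2 in the 7 high ratio arrays and 10.4, 10.46, 9.94, 8.95, 8.03, 9.75 and 8.63 log2 in the 7 low ratio arrays. The high ratio values were narrow, and of the low ratio values siTNF-OMe-P 2 and 7 lay among them. The difference was -1.25 ± 0.35 log2 (SE, unadjusted p = 0.00138, adjusted p = 1), and leaving out any 1 array kept it between -1.49 and -1.07. Ido1, which degrades tryptophan and is induced by interferon gamma, ran from 8.12 through 8.51 to 9.91 in high ratio arrays and from 7.51 through 10.57 to 11.7 in low ratio arrays (-1.04 ± 0.49 log2). Its lowest value of all 14 came from a low ratio array, siTNF-OMe-P 2.

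Other lists lay closer to 0. Squamous keratin genes had a median of -0.19 log2, with 22 of 23 below 0, and the 4 arrays high in these keratins were named above. Krt5, the basal keratin, was 11.85 in siTNF 3 and 9.84 in siTNF-OMe 4 of the high ratio class and 12.27 and 12.22 in siTNF-OMe-P 1 and 2 of the low ratio class, and its difference of -0.57 had an SE of 1.11. Of 24 cell cycle genes 21 lay below 0, with a median of -0.13 beside 0.0031 over all probe sets. At an unadjusted p under 0.05, 4 of them were lower, as were 1.2% of all probe sets. Mcm6, a helicase subunit of DNA replication, was 1 of the 4 (-0.29 ± 0.12 log2). Top2a, the mitotic topoisomerase, differed by -0.26 ± 0.13 and the kinase Plk1 by 0.02 ± 0.18. Genes of nucleic acid sensing had a median of -0.10, with Dhx58 at -0.39 ± 0.24 and Tlr7 at 0.23 ± 0.13, T and NK cell genes one of -0.08, with Gzma at -0.35 ± 0.17, and smooth muscle genes one of -0.06, with 21 of 23 below 0.

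Neutrophil genes had a median of 0.15 log2 (17 of 21 above 0), targets of NF-kB 0.13 (15 of 18 above) and matrix proteases and their inhibitors 0.10 (13 of 19 above), and all 3 medians changed sign without siTNF 3, to -0.11, -0.06 and -0.06. Ngp, a granule protein of immature neutrophils, was 10.37 in siTNF 3 and 5.91 to 6.30 in the other high ratio arrays, against 5.90 to 6.38 in low ratio arrays. Its difference of 0.85 ± 0.44 log2 became -0.0034 without siTNF 3. Ltf, the granule protein lactoferrin, was also highest of the high ratio arrays in siTNF 3 (11.56), but differed by -0.88 ± 0.50. Collagen and fibroblast genes had a median of 0.11 (20 of 24 above 0), with Col4a1 at 0.19 ± 0.14, and absorptive colonocyte genes 0.11 (18 of 24 above 0), with the water channel Aqp8 at 0.44 ± 0.28 and the cytochrome Cyp2c55 at 0.56 ± 0.51. No member of any of the 36 lists was called.

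**Figure D4:**
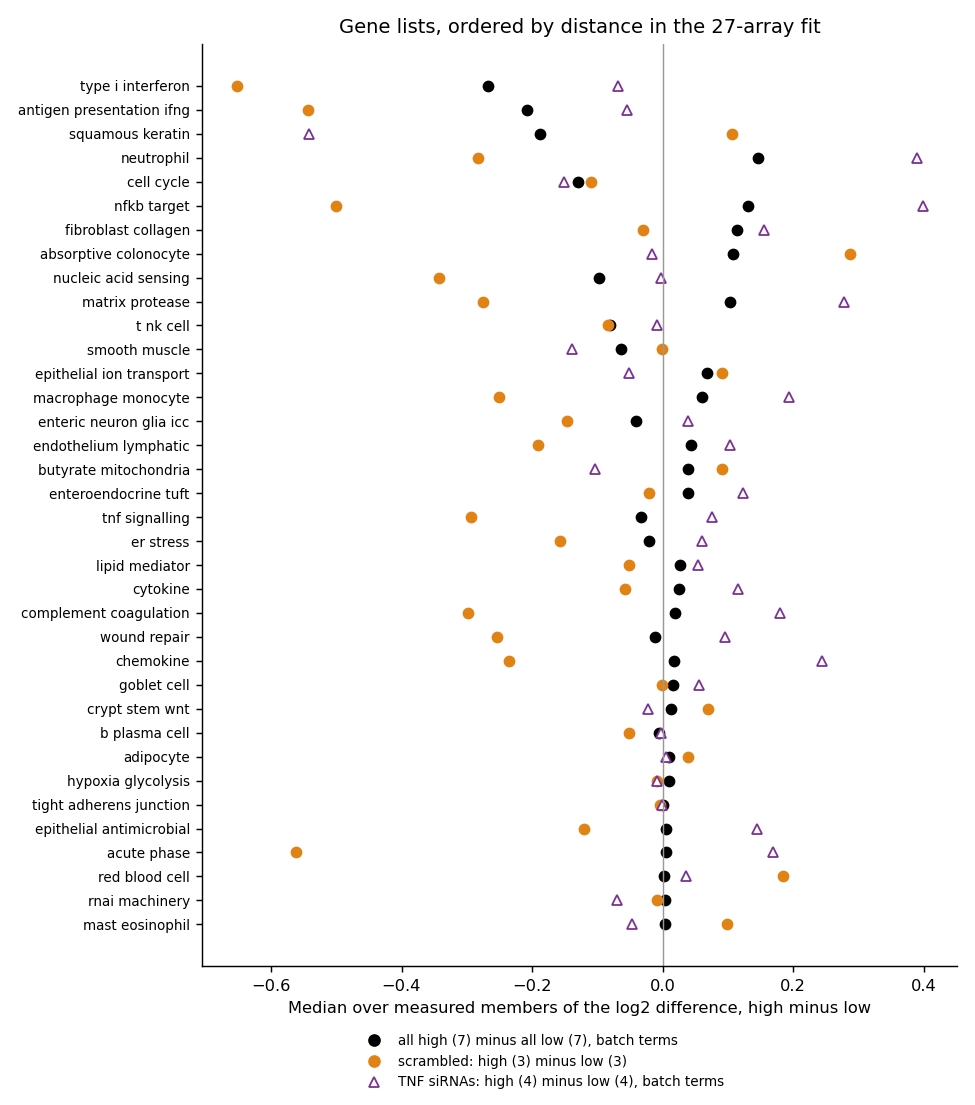
Median over the measured members of each gene list of the log2 difference, high minus low ratio (x axis), for all 14 samples (black), scrambled samples (orange) and samples given an siRNA against Tnf (open triangles). The type I interferon median is -0.27 over all, -0.65 in scrambled samples and -0.07 in the others, and the NF-kB target median is 0.13, -0.50 and 0.40 in the same order.

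The scrambled samples are the only ones in which the siRNA was the same in both classes. In a limma fit of those 6 arrays alone, 34 probe sets were called, all of them lower in the high ratio mice (0.118% of all tested). An unadjusted p under 0.05 was found for 3028 probe sets, and these ran both ways, with 1608 higher and 1420 lower in the high ratio mice. The called genes included chemokines of the CXCR3 axis, guanylate-binding proteins, immunity-related GTPases, parts of the class I antigen pathway and Nos2. The 34 probe sets stood for 23 single genes, with 7 more annotated to several related genes or to overlapping ones and 4 with no gene. This comparison was among the alternatives planned, but was made a result of its own after its values were seen. The classes also differ in amplification batch here, with high ratio mice in batches 2, 3 and 3 and low ratio mice in batches 1, 2 and 2, and only batch 2 held both.

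The ISRE and GAS motifs that interferon-activated factors bind were searched in promoters of these genes. The 4 promoters shown here each held a match and do not stand for all the called genes. Each runs from 250 bases before to 50 bases after the transcription start (RefSeq, GRCm38.p6), with matches to GAAANNGAAA (ISRE core) or TTCNNNGAA (GAS), on either strand, in capitals.
Gm12250, chr11:58183593-58183892, plus strand: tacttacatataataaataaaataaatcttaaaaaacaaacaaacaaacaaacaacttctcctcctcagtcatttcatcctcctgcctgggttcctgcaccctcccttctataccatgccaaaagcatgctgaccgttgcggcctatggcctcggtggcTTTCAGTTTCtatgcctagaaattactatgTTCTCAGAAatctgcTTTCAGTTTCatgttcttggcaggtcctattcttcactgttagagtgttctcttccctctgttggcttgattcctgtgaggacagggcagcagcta
Cxcl10, chr5:92348840-92349139, minus strand: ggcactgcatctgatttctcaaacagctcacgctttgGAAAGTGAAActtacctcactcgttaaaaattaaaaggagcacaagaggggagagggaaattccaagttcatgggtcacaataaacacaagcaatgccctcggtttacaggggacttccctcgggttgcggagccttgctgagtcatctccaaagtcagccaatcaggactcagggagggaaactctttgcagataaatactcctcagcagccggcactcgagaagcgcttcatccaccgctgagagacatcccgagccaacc
Gbp5, chr3:142496684-142496983, plus strand: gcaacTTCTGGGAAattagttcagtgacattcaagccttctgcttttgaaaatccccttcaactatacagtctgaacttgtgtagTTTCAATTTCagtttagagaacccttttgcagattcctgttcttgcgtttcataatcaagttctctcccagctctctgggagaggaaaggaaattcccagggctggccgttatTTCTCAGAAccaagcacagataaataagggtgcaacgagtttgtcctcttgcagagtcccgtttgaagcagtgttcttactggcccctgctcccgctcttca
Gbp7, chr3:142530086-142530385, plus strand: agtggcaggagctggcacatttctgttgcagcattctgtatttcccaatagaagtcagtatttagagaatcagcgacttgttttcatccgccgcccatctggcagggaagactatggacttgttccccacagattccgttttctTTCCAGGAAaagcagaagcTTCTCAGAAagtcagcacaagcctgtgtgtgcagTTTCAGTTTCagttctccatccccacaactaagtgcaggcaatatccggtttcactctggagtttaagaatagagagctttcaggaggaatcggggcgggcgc
Gm12250 held 2 ISRE cores and 1 GAS, Cxcl10 held 1 ISRE core, and Gbp5 and Gbp7 each held 1 ISRE core and 2 GAS, none overlapping another. Promoters were given for 17 of the 23 single genes, 22 in all, of which 8 (36.4%) held the ISRE core and 7 (31.8%) the GAS. Of the 17 genes, 11 held either motif, and only Gm12250, Gbp5 and Gbp7 held both. Neither was found for Cxcl9, Cd274, Tap1, Slfn4, Acod1 and Upp1. Of all 32851 promoters in the table, 3.44% held the ISRE core, 8.3% the GAS and 0.454% both. A match is a stretch of letters and not a shown binding site.

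Cxcl10, the chemokine that draws CXCR3-bearing T cells, read 8.22, 8.19 and 7.91 log2 in scrambled mice 4, 5 and 6 of the high ratio class and 10.6, 10.7 and 10.64 log2 in scrambled mice 1, 2 and 3 of the low ratio class. The groups lay far apart and each was tight. The difference was -2.54 ± 0.13 log2 (SE, limma adjusted p = 8.42e-04, 3 against 3), which is 5.82-fold lower in the high ratio mice. Cxcl9, a ligand of the same receptor, differed by -1.61 log2 (adjusted p = 0.0289).

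Iigp1, an immunity-related GTPase that attacks the vacuoles of intracellular parasites, read 9.79, 9.18 and 10.2 log2 in the high ratio mice and 12.04, 12.19 and 11.8 log2 in the low ratio mice, a difference of -2.28 (adjusted p = 0.0237). Gm12250 differed by -2.20 log2 (adjusted p = 0.00874), with the 3 high ratio values at most 8.18 and the 3 low ratio values at least 9.94. Among the guanylate-binding proteins, which coat and break open pathogen vacuoles, Gbp4 fell by 2.12 log2 (adjusted p = 0.0237), Gbp5 by 2.04 (adjusted p = 0.0155), Gbp3 by 1.55 (adjusted p = 0.0378) and Gbp7 by 1.49 (adjusted p = 0.0315). Probe sets shared by near-identical genes were called too, with the pair Tgtp1 and Tgtp2 at -1.86, Irgm2 and Igtp at -1.75 and Gbp2 and Gbp2b at -1.73 log2, and cannot be assigned to 1 gene.

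Nos2, the inducible nitric oxide synthase, read 8.37, 7.94 and 8.00 log2 in the high ratio mice and 9.88, 10.25 and 10.07 in the low ratio mice (-1.97 log2, adjusted p = 0.00874). Trim15, a ubiquitin ligase, differed by -1.79 log2 (adjusted p = 0.0315), Gm4951, another interferon-inducible GTPase, by -1.74 (adjusted p = 0.0471) and Calhm6, a channel of immune cells, by -1.64 (adjusted p = 0.0155). In the class I antigen pathway, the peptide transporter Tap1 differed by -1.36 and the immunoproteasome subunit Psmb8 by -0.68 log2. Cd274, which encodes the checkpoint ligand PD-L1, differed by -1.38, Acod1, which makes itaconate in macrophages, by -0.98, and Upp1 by -1.14 log2. Ifi203, Ifi205, Slfn4, Ccdc71l, Wars and Zbp1 were the other single genes called, all at differences between -1.33 and -0.89 log2.

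As whole lists in the scrambled samples, type I interferon genes had a median of -0.65 log2 beside 0.048 over all probe sets, 22 of 22 below 0, and 18 of 22 had all 3 high ratio values below all 3 low ones, where 7.37% of all probe sets did. Zbp1 was the 1 called, and 20 were lower at an unadjusted p under 0.05, as were 4.92% of all probe sets. Of the 17 genes of antigen presentation and the interferon gamma response, 4 were called (Tap1, Psmb8, Gbp3 and Iigp1), 12 did not overlap, and the median was -0.54. All 18 NF-kB targets lay below 0 (median -0.50, 12 without overlap, 0 called), and so did 14 of 15 acute phase genes (median -0.56, 3 without overlap, 0 called). Irf1, the interferon-induced transcription factor, differed by -0.93 (adjusted p = 0.0705). Neutrophil genes had a median of -0.28, with 15 of 21 below 0 and 0 called. Of these 21, 9 lay lower in the high ratio mice without overlap and 1 higher without overlap. The neutrophil markers S100a8, S100a9 and Ly6g differed by -1.74, -1.41 and -0.23 log2. Absorptive colonocyte genes had a median of 0.29, with 18 of 24 above 0. Markers of T and NK cells stood at a median of -0.08, with Cd3e at 0.06 and Gzma at -0.52 log2, and macrophage genes at -0.25, with 22 of 24 below 0.

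All 34 differences kept their sign in each of the 17 other fits of the scrambled samples for those probe sets that were tested (31 of 34 in the fit without dim probe sets). Much of this was fixed in advance. The 34 were picked from these same arrays and none overlapped between the classes, so leaving out 1 mouse could not change a sign. Changed limma options left the differences as they were. The number called did not hold. It was 0 with the spread pooled over 27 arrays and batch terms (lowest adjusted p 0.114), 28 with the spread pooled and no batch terms, 331 with amplification batch and 1 with hybridization batch as a covariate. Of the 331, 237 were higher and 94 lower in the high ratio mice, and 27 were among the 34. With amplification batch as a covariate, only batch 2 informed the difference, with scrambled 4 against scrambled 2 and 3. Those calls therefore rested on 1 high ratio mouse. Leaving out 1 mouse gave between 1 and 114 calls, with 1 call without scrambled 2 or scrambled 5, 4 without scrambled 1 and 16 without scrambled 6. Scrambled 7, labelled mid ratio, lay below all 3 low ratio mice in all 34 probe sets and within the range of the 3 high ratio mice in 24. Placed in the low ratio class, as its own weight and length would have it, it took the number of calls to 0.

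In amplification batch 2 alone, with high ratio arrays scrambled 4, siTNF 3 and siTNF-OMe 4 and low ratio arrays scrambled 2, scrambled 3 and siTNF-OMe-P 4, 11 probe sets were called. All 11 were lower in the high ratio class and were among the 34, and 3 of the 6 arrays are shared between these comparisons. There Cxcl10 was 8.22 to 9.07 log2 in high ratio arrays and 10.11 to 10.7 in low ratio arrays, and Calhm6 was 8.26 to 8.64 in high ratio arrays and 9.72 to 9.99 in low ratio arrays, with a difference of -1.35 ± 0.12 (SE, limma adjusted p = 0.00197). siTNF-OMe-P 4 stood near the scrambled low ratio mice, and the other 3 low ratio mice given siTNF-OMe-P lay lower in Gm12250, Cxcl10 and Calhm6.

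Among the mice given an siRNA against Tnf, the 4 high ratio samples against the 4 low ratio ones gave 0 calls (0% of 28853, limma fit of 27 arrays) and 441 probe sets at an unadjusted p under 0.05. The 34 probe sets called in scrambled mice had a median difference of -0.14 log2 here, with 22 below 0, and Cxcl10 differed by 0.02 ± 0.40. Its values were 9.07, 8.87, 8.39 and 9.36 log2 in the high ratio mice and 8.68, 8.09, 10.11 and 8.80 in the low ratio mice, which interleave. The type I interferon median was -0.07, that of NF-kB targets 0.40, that of neutrophil genes 0.39 and that of squamous keratins -0.54. The siRNA differs between these classes (siTNF and siTNF-OMe against siTNF-OMe-P), so these values cannot be told apart from a difference between the agents.

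The difference between the scrambled and the Tnf siRNA comparisons was itself tested, and 0 probe sets were called, with 1819 at an unadjusted p under 0.05 and a lowest adjusted p of 0.0563. For Cxcl10 it was -2.56 log2 (adjusted p = 0.256), for Nos2 -2.38 (adjusted p = 0.262) and for Trim15 -3.04 (adjusted p = 0.184). Without batch terms, as in the fit of the scrambled arrays, 2 probe sets were called, which carried no gene, held the same values (-0.61 log2, adjusted p = 0.0193) and were not among the 34.

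Control mice had the lowest levels of most of these genes. Iigp1 averaged 10.07 in high ratio mice, 11.15 in low ratio mice and 8.35 in Control, and Cxcl10 averaged 8.57, 9.66 and 7.74 in the same order. Of the 34 probe sets called in scrambled mice, the scrambled high ratio mean lay above the Control mean for 32. These levels were not tested.

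**Figure D5:**
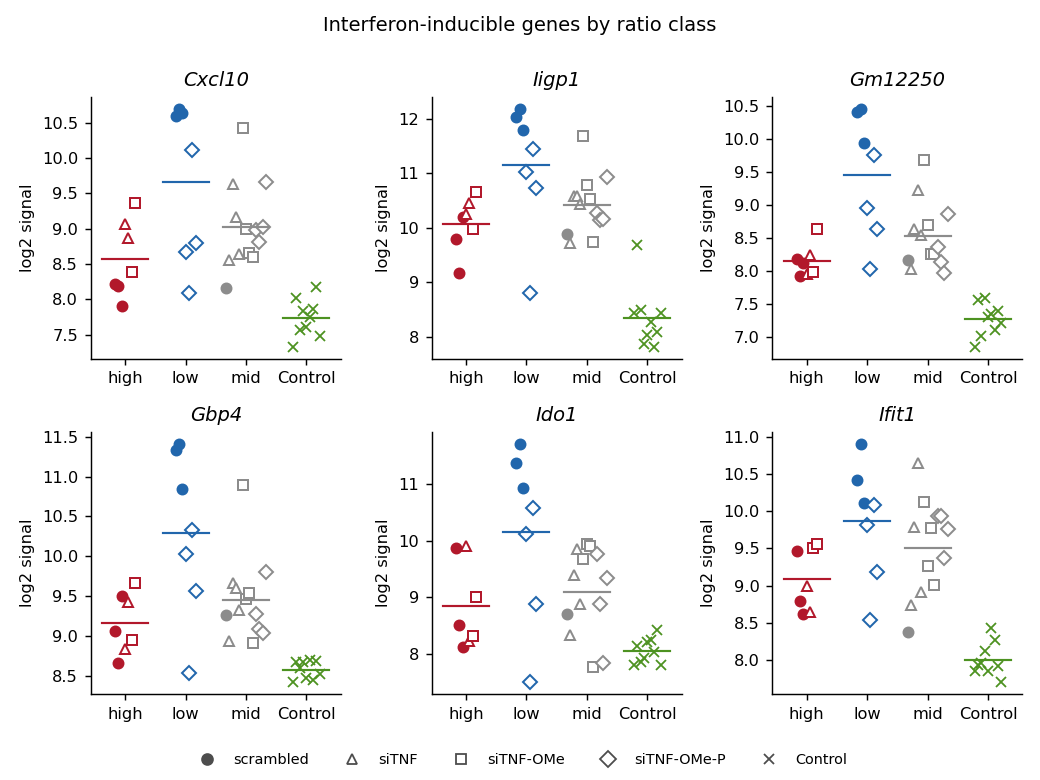
Log2 signal of Cxcl10, Iigp1, Gm12250, Gbp4, Ido1 and Ifit1 on each array (1 symbol), by ratio class and shaped by siRNA (filled circles are scrambled), with class means as lines. The 3 scrambled low ratio mice are highest in each panel, except that a mid ratio sample lies among them for Gbp4 and Ifit1, and for Cxcl10 they read 10.6 to 10.7, against 7.91 to 8.22 in the scrambled high ratio mice.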

How the data were processed

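Gene expression was measured in 36 distal colon samples, of which 27 siRNA-dosed arrays were fitted. Per the labels' protocols, total RNA (RNeasy) was amplified as whole transcriptome from 25 ng and biotinylated, in 3 amplification and 2 hybridization batches. The authors deposited log2 signals per probe set, made with Partek and RMA per the submitters' processing notes, without versions. Whether batches were adjusted for is not given in the sources used. Of 28853 probe sets, 21789 carry 1 gene in the platform annotation, 1621 several and 5443 none (19938 genes). No probe set was filtered out, and a listed gene was read from its probe set of highest mean.

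limma 3.58.1 in R 4.3.3 fitted 3 ratio classes with amplification and hybridization batch, with a mean-variance trend and 21 residual degrees of freedom. Two-sided p values were adjusted over all probe sets by Benjamini-Hochberg and called at 0.05, and 0 probe sets were called for either batch. The fit of 6 scrambled arrays had no batch term, and the Tnf siRNA comparison and its difference came from 1 fit of class by scrambled or Tnf siRNA on 27 arrays. MPO was compared by exact permutation of class labels, and its correlation by 100000 permutations. The main fit of 27 arrays was tested on simulated data, and the other fits and tests were not. Precision is limited by the number of arrays. P values measure the spread between these samples.

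Classes, lists and members were chosen with earlier results of these data known. The rule named Tnf, the 12 smallest p values in each direction where none was called, the 12 lowest called scrambled genes, the 2 highest and 2 lowest members of the 12 lists farthest from the median of all probe sets, and the cell type markers measured. The scrambled and Tnf siRNA comparisons as results of their own and their fits, the pancreatic genes, Ido1, Reg3b and called genes beyond the rule were chosen after values were seen. List medians of 36 lists (687 of 752 places measured) carry no test. Promoters came from RefSeq. Figures used matplotlib in Python. Alternatives were batch terms and single batches, the siRNA as a covariate, the replicate block, the ratio as a number or recomputed, normalization, array SD and weights, dim probe sets, limma options, size limits on the calls and leaving out arrays.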

Additional observations from a re-analysis of the deposited data

Results flagged for a closer look

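Dixon's ratio at its 95% critical value marked 34 sample values in 339 tests of a gene's values within a class. Some of the genes, the pancreatic ones and Reg3b among them, were chosen after their values were seen. The count can therefore not be set against a chance rate. All 34 marks concern single samples, and no explanation was weighed.

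In the high ratio class, siTNF 3 stood apart in 10 genes. It was high in the neutrophil genes Ngp (10.37 log2), Ltf (11.56), S100a9 (12.47) and Mmp9 (8.94), in the keratin Krt15 (8.75), in the immediate early gene Ier3 (11.17) and in Rell1 (10.72), and low in the colonocyte gene Ms4a12 (9.02), the goblet cell gene Clca1 (12.86) and Apol7a (7.03). Scrambled 5 was high in the pancreatic genes Cpa1 (13.37), Cpb1 (12.71) and Cel (12.34) and in Reg3b (11.24), an antimicrobial lectin that the pancreas also makes. Scrambled 4 was high in the probe set annotated Adck1 (6.19).

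In the low ratio class, siTNF-OMe-P 2 was low in Iigp1 (8.80) and Nexn (8.30) and high in Cel (7.15), Ctrb1 (8.35) and BC030500 (6.99). Scrambled 2 was high in Ngp (6.38), the granzyme Gzma (8.03), Pecam1 (10.92) and Uchl1 (11.3), scrambled 3 in Apol7a (8.22) and siTNF-OMe-P 4 in Reg3b (8.95).

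Among Control samples, Control 4 stood apart in BC030500 (7.09), Tnf (8.68), Krt5 (7.39) and Krt15 (7.80), Control 2 in Iigp1 (9.68) and Trim15 (7.24), Control 1 in Cd79a (8.27) and Control 8 in Car1 (12.84).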

How the results depend on the processing

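The count of 0 called probe sets held in 36 of 40 alternatives, leave-one-out fits included. These alternatives include size limits of 0.5 and 1 log2 set on the main calls, which could only give 0. The count was 7405 in hybridization batch 1 alone, 11 in amplification batch 2 alone, 34 in scrambled arrays only and 73 with array weights, where siTNF-OMe 4 alone had a weight of 16.15. The replicate block in place of batch terms gave 0 calls and 5837 probe sets at an unadjusted p under 0.05. Of same-numbered pairs of samples, 20 of 37 correlated over 0.1 (median 0.154, lowest -0.491), and of different-numbered pairs 103 of 314 (median -0.070). Only 4 of 27 arrays were closest to one of their own number. Whether title numbers mark a pairing was not tested. The 34 scrambled calls became 0 with pooled spread and batch terms, 331 with amplification batch (237 of them higher in high ratio mice), 1 with hybridization batch and 7 with array SD as covariate, 9 without the trend, 0 with the recomputed ratio, and 1 to 114 with 1 mouse left out. The scrambled fit with amplification batch rested on scrambled 4 alone among the high ratio mice. The difference between the scrambled and Tnf siRNA comparisons had 2 calls without batch terms. A named gene's change of sign was counted only where its unadjusted p was under 0.05 in either fit. In scrambled arrays only it befell Krt15 (0.25), Ier3 (-0.53), Nfkbia (-0.55), S100a8 (-1.74), S100a9 (-1.41) and Ly6g (-0.23), in amplification batch 3 alone Calhm6 (0.19), Oas2 (0.68) and Mcm6 (0.058), in hybridization batch 1 alone Adgre1 (-0.30) and Uchl1 (-0.36), and with array weights Lum (0.26). The causes were not tested. The type I interferon median stayed below 0 in every alternative, from -0.65 to -0.08, and the MPO difference ran from -0.352 to -0.141 with 1 mouse left out. Of 106 named genes 72 kept their sign whichever array was left out. Signal over background was not used here.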

Other observations

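High values of pancreatic and squamous genes also occurred in the mid ratio class, and a tie to ratio class or siRNA was not tested. The 10 pancreatic genes averaged 11.08 log2 in siTNF 5 and 10.84 in siTNF-OMe 1, both mid ratio, and 7.79 to 8.43 in Control. Squamous keratins averaged 9.45, 9.23 and 8.96 in siTNF-OMe 3, 5 and 2 and 9.22 in siTNF-OMe-P 5, all mid ratio, and at most 7.99 in Control. Among the 73 probe sets called by limma with array weights, Ido1 was lowest (-2.17 log2, adjusted p = 0.0193). Of those with a gene, Ighm, the heavy chain of IgM, was highest (1.24 log2, adjusted p = 0.0193). A probe set with no gene was higher still (3.44 log2, adjusted p = 0.019). Of the 73, 13 were also called in scrambled mice. The proteasome activators Psme1 (-0.22) and Psme2 (-0.34) and the immunoproteasome subunit Psmb9 (-0.64) were called in that fit too, all lower in high ratio colons.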
